A study of Rattus norvegicus with 18 samples.

Results

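Axon guidance genes of the Eph, ephrin, Slit, Robo and netrin families were compared between 2 cell populations that were sorted from male rat brain on postnatal day 7. Members were chosen by gene symbol: Eph receptors, ephrins, Slits, Robos, netrins, genes with an Unc5 name, the repulsive guidance molecules Rgma and Rgmb, Dcc, Neo1, Rtn4 and Rtn4r. Probe sets with exactly 1 annotated symbol covered 38 such genes, of 13810 genes named on the arrays, through 62 probe sets. Probe sets entered the tests where 4 or more of their 9 arrays had a ratio of 1 or above, which left 32 member genes (47 probe sets) of 11982. The rule brought in Unc50 and Unc5cl by their names, and neither is a netrin receptor.

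One population was A2B5+, selected with an antibody against gangliosides on glial progenitors and some neurons, and the other O4+, selected with an antibody against sulfatide and related lipids of late progenitors and oligodendrocytes. The labels describe 5 biological replicates of A2B5+ and 4 of O4+ cells, each from a dissociated litter of 10 pups, so that every replicate pools animals. Each of 2 array types, A and B, has 5 A2B5+ and 4 O4+ arrays, for 18 in all. The source labels of the array B samples read whole brain, while their titles and descriptions name the sorted populations. Strain, treatment and genotype are not given in the sources used here, nor whether both populations of a replicate number came from the same litter.

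Guidance cues and their receptors steer growing axons and migrating cells. Eph receptors are tyrosine kinases that bind ephrins on neighbouring cells; class A ephrins are tethered by a lipid anchor and class B ephrins span the membrane, and contact signals into both cells, most often as repulsion. Slits are secreted repellents read by Robo receptors. Netrin-1 attracts through Dcc and its relative neogenin (Neo1) and repels through UNC5 receptors, and neogenin is also the receptor of repulsive guidance molecules. In the oligodendrocyte lineage these systems are known for directing progenitor migration and process extension, and Nogo (Rtn4) on oligodendrocytes is known for inhibiting axon growth through the receptor Rtn4r.

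The deposited values are ratios within a probe set, so each gene was compared between arrays and never with another gene. A gene's value was the mean log2 ratio of its kept probe sets, from array A where it had one there (23 member genes) and otherwise from array B (9). Differences are given on the log2 scale as O4+ minus A2B5+ and carry limma's standard errors (n = 5 and 4), and a gene is said to rise or fall at a Benjamini-Hochberg adjusted p under 0.05 over all genes. In sorted bulk samples a larger share of cells with a transcript and more transcript per cell cannot be told apart.

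The probe sets that the filter left out, 2768 on array A, bear on the small rises. Their median pattern on array A was 0.30 higher in O4+ than in A2B5+ arrays, against 0.06 for 4140 probe sets on array B. On both types these low-ratio probe sets varied little around their common pattern, with a median SD over 9 arrays of 0.0627 and 0.0584. The 95th percentile of that SD among low-ratio probe sets was 0.321 (array A) and 0.297 (array B). Around the same pattern, 10 of 27 and 5 of 20 kept member probe sets had an SD at or below it. So had 39.1% and 44.0% of all kept probe sets. Such an SD can still lie well above the low-ratio median. Each comparison was therefore also fitted with that pattern subtracted from every array, a setting chosen after seeing the data and called the low-ratio scale below. The subtraction lowered every array A difference by 0.30 and every array B difference by 0.06. Rises could thus only shrink and falls only grow, so this scale is no check on the size of a fall.

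Guidance genes differed in both directions. Of 32 members 13 rose and 9 fell in O4+ cells, where 28.8% of all 11982 genes rose and 17.8% fell. On the low-ratio scale 7 rose and 9 fell, against 13.7% and 24.5% of all genes, and with each array centred on its median 8 rose and 9 fell, against 18.7% and 20.4%. Higher genes thus made up 59.1%, 43.8% and 47.1% of the calls on the 3 scales (all genes 61.8%, 35.8% and 47.8%). The median difference of the members was 0.27 and that of all genes 0.14, or 0.03 and -0.08 on the low-ratio scale. Values of the populations did not overlap for 23 of the 32 members, 15 with O4+ higher and 8 with O4+ lower, against 27.6% and 13.5% of all genes (41.1% either way). Single probe sets were also tested within each type: on array A 11 of 27 member probe sets rose and 8 fell (32.5% and 14.7% of all, 47.2% either way), and on array B 6 of 20 rose and 3 fell (9.93% and 13.8%, 23.7% either way). Populations did not overlap in 19 of the 27 and 9 of the 20, against 44% and 25.6% of all kept probe sets. All these overlap counts used the deposited ratios. The low-ratio pattern itself separated the populations, at -0.262 to -0.002 in A2B5+ and 0.102 to 0.257 in O4+ arrays of type A. On array B it ran from -0.069 to 0.012 and from 0.019 to 0.030. A lack of overlap with O4+ higher therefore does not by itself tell a gene's rise from that pattern. The genes Epha10, Ephb1, Efna1, Efna2, Neo1, Unc5b and Unc5c rose, and Epha2, Epha5, Ephb3, Ephb4, Efna5, Efnb3 and Rgma fell, under all 17 other settings run as well.

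**Figure D1:**
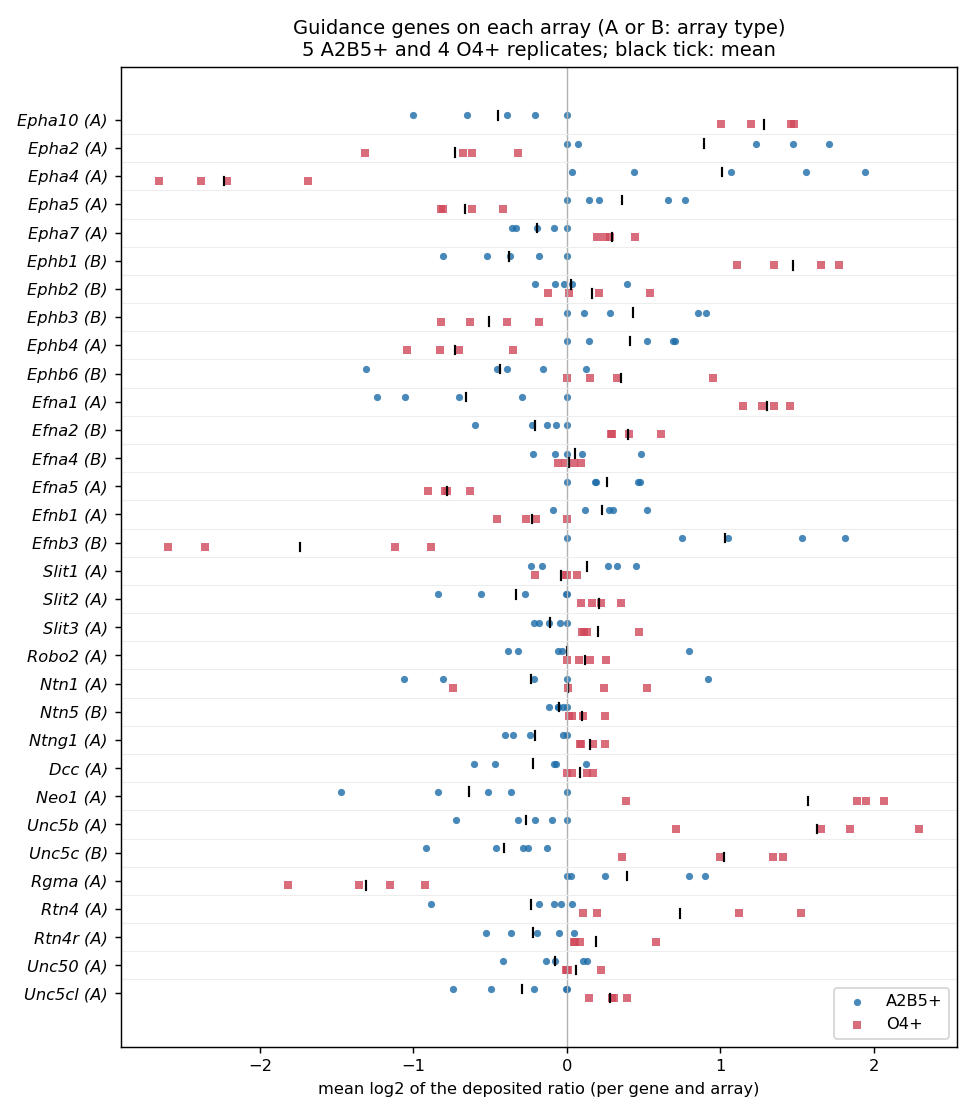
Mean log2 ratio of each of the 32 tested guidance genes on every array, ordered by role, with blue circles for 5 A2B5+ and red squares for 4 O4+ replicates and a black tick at each mean. Epha4 and Efnb3 lie far lower in O4+ arrays and Neo1, Efna1, Unc5b, Ephb1 and Epha10 higher, while Ephb2, Efna4 and Ntn1 overlap.

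Kept member probe sets reached a ratio of 1 on 5 arrays (45 probe sets) or 6 (2), which follows from their median ratio of 1, and those left out on 0 (13) or 1 (2). The genes Epha3, Epha6, Epha8, Robo1, Robo3 and Unc5a had no kept probe set and were not tested. The Robo1 ratios on array A ran from 0.542 to 0.689 in A2B5+ and from 0.718 to 0.823 in O4+ arrays. They followed the low-ratio pattern with an SD around it of 0.0390, so no rise is read from them. The array A probe sets of Epha3 (SD 0.0325) and Unc5a (SD 0.0288) followed that pattern as well. Since a probe set below a ratio of 1 on most arrays carries no level, nothing is said about whether these genes were expressed.

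Promoter sequences are shown for the members with the largest falls and rises among those called without overlap that the RefSeq promoter table (GRCr8) holds, since they are the start regions of the genes that separate the populations. The table held 31 of the 38 members; Epha4, Efnb3, Ntn1, Rtn4, Slit1, Slit2 and Unc5c had no entry. Each line gives the 250 bases before the gene start, 5′ to 3′ on the gene's strand, with capitals at GC boxes (GGGCGG on either strand, overlaps included). The Rgma window is chr1:136538532-136538781 on the plus strand, that of Epha2 chr5:158888379-158888628 on the plus strand, that of Neo1 chr8:68322153-68322402 on the minus strand and that of Efna1 chr2:176986822-176987071 on the minus strand.
Rgma: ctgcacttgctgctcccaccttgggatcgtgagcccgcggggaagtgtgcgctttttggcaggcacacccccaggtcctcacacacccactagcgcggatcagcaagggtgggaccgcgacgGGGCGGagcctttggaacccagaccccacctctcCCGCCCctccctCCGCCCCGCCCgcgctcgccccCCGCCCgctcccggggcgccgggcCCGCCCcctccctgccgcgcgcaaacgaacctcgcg
Epha2: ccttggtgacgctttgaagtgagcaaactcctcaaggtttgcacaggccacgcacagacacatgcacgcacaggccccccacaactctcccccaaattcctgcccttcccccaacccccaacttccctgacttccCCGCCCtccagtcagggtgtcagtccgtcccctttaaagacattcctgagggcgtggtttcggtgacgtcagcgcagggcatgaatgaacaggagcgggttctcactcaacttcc
Neo1: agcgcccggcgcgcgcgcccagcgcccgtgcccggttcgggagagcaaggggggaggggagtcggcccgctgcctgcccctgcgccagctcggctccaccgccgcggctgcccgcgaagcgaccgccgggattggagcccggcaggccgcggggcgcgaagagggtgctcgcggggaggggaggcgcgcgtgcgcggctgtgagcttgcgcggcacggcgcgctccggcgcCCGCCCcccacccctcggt
Efna1: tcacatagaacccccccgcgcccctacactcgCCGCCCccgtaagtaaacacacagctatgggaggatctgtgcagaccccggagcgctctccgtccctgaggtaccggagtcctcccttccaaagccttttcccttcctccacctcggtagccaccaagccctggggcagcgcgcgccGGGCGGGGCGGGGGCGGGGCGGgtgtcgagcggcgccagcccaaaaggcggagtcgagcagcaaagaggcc
GC boxes numbered 6 in Rgma, which fell, 1 in Epha2, which fell, 1 in Neo1, which rose, and 5 in Efna1, which rose. The E-box CANNTG occurred once each in Rgma and Epha2 and in neither of the risers, and the core ACAAT, sought on both strands as a Sox-type motif, in none of the 4. Over the 25 tested members with a window, 15 held a GC box (60.0%), 12 an E-box (48.0%) and 6 the ACAAT core (24.0%), against 30.5%, 65.5% and 30.0% of 33469 promoters of that length. The members had passed the ratio filter, while the 33469 promoters were not limited to tested genes. Members were not compared with the promoters of other tested genes, so these percentages do not show a trait of guidance genes. The motif matches describe letters in a window and no factor's binding was measured.

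Eph receptors changed in both directions. Of 10 tested receptors 4 rose and 5 fell, against 28.8% and 17.8% of all genes, and on the low-ratio scale 2 rose and 5 fell, against 13.7% and 24.5%. Epha4, which binds ephrins of both classes, had the lowest difference of all members. For 1 of its array A probe sets the A2B5+ ratios were 2.45, 1.83, 4.53, 3.72 and 1, and the O4+ ratios 0.204, 0.077, 0.121 and 0.221. Every O4+ array lay below every A2B5+ array, and this probe set fell by 4.05 ± 0.45 (adjusted p = 8.49e-05 within array A). The other read 1.80, 1, 3.26, 2.33 and 1.05 in A2B5+ and 0.227, 0.479, 0.207 and 0.436 in O4+ arrays and fell by 2.44 ± 0.39. The mean of both fell by 3.24 ± 0.38, or 9.48-fold (adjusted p = 0.000122). The kept Epha4 probe set of array B did not show this. Its ratios were 0.990 to 1.39 in A2B5+ and 0.901 to 1.01 in O4+ arrays (difference -0.15 ± 0.12, adjusted p = 0.372). Its SD around the low-ratio pattern, 0.196, was below the 95th percentile of low-ratio probe sets (0.297). With array B used first, Epha4 was therefore not called (adjusted p = 0.371). A further array B probe set of Epha4, left out by the filter, had ratios of 0.672 to 0.758 in A2B5+ and 0.670 to 0.902 in O4+ arrays.

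Epha2 and Epha5, receptors of class A ephrins, and Ephb4, the receptor of ephrin-B2 in veins, fell as well. Epha2 ratios were 2.78, 2.35, 1, 1.05 and 3.26 in A2B5+ and 0.801, 0.627, 0.402 and 0.652 in O4+ arrays. The gene fell by 1.63 ± 0.39 (adjusted p = 0.00739; -1.03 with array weights, adjusted p = 0.0199), with A2B5+ replicates 3 and 4 nearest to the O4+ arrays. For Epha5 the A2B5+ ratios were 1.58, 1, 1.71, 1.16 and 1.11 and the O4+ ratios 0.566, 0.653, 0.573 and 0.751. It fell by 1.02 ± 0.18, or 2.03-fold (adjusted p = 0.00173), without overlap. Ephb4 read 1.62, 1, 1.44, 1.10 and 1.63 in A2B5+ and 0.486, 0.784, 0.614 and 0.564 in O4+ arrays, and fell by 1.14 ± 0.20 (adjusted p = 0.00129). Ephb3, a receptor of class B ephrins, fell by 0.94 ± 0.23 (adjusted p = 0.00825) as the mean of 2 array B probe sets that disagreed. One gave 1, 1.18, 3.62, 3.31 and 1.44 in A2B5+ and 0.313, 0.761, 0.402 and 0.583 in O4+ arrays (-1.91 ± 0.45, adjusted p = 0.0158), and the other 1, 0.991, 0.976, 0.989 and 1.025 in A2B5+ and 1.022, 1.026, 1.034 and 0.997 in O4+ arrays (0.03 ± 0.06, adjusted p = 0.719).

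Ephb1 and Epha10 were the receptors that rose on every scale. Ephb1, a kinase that binds class B ephrins, had A2B5+ ratios of 1, 0.699, 0.773, 0.882 and 0.571 and O4+ ratios of 3.43, 3.15, 2.55 and 2.16. All O4+ arrays lay above all A2B5+ arrays, and the gene rose by 1.85 ± 0.20, or 3.60-fold (adjusted p = 7.21e-05). Epha10, which lacks kinase activity, read 0.499, 0.765, 0.636, 0.867 and 1 in A2B5+ and 2.75, 2.30, 2.01 and 2.79 in O4+ arrays. Its rise was 1.74 ± 0.21, or 3.33-fold (adjusted p = 0.000146).

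Of the remaining receptors, Epha7 and Ephb6 were called only under some settings and Ephb2 was not called. Epha7, a receptor of class A ephrins, rose by 0.49 ± 0.12 (adjusted p = 0.0090), and by 0.32 with arrays centred (adjusted p = 0.0304), but on the low-ratio scale its difference of 0.18 was not called (adjusted p = 0.124). One of its probe sets read 0.768, 0.696, 0.857, 1 and 0.891 in A2B5+ and 1.25, 1.51, 1.26 and 1.16 in O4+ arrays, and the other 0.825, 0.877, 0.891, 1 and 0.997, and 1.13, 1.23, 1.17 and 1.14. Within array A on the low-ratio scale, the first stayed called (0.32, adjusted p = 0.0377) and the other did not (0.05, adjusted p = 0.694). The populations did not overlap. The SDs of the 2 probe sets around the pattern, 0.198 and 0.0392, were below the 95th percentile of low-ratio probe sets (0.321). Ephb6, another receptor without kinase activity, rose by 0.79 ± 0.29 (adjusted p = 0.0474) with overlapping values. Its size was nearly the same on the low-ratio scale (0.73, adjusted p = 0.0866), with arrays centred (0.79, 0.0561), with array B first (0.79, 0.0524) and among array B probe sets alone (0.79, 0.0895), and smaller with array weights (0.56, 0.0722) or a replicate block (0.57, 0.106). The call ended in each of these and on leaving out any single replicate other than A2B5+ replicate 3 (adjusted p = 0.0504 to 0.130). Ephb2, a receptor of class B ephrins, differed by 0.14 ± 0.17 over 3 probe sets (adjusted p = 0.534). Its O4+ values ran from 0.919 to 2.23 in the most variable of them.

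Ephrins also split, with 2 of 6 rising and 3 falling on all 3 scales. All genes rose in 28.8%, 13.7% and 18.7% and fell in 17.8%, 24.5% and 20.4% of cases as deposited, on the low-ratio scale and with arrays centred. Efnb3, a class B ephrin known as a midline barrier to spinal axons, gave ratios of 3.52, 1.68, 2.90, 2.07 and 1 in A2B5+ and 0.541, 0.461, 0.195 and 0.165 in O4+ arrays. It fell by 2.77 ± 0.45, or 6.82-fold (adjusted p = 0.000878), and O4+ arrays 3 and 4 were the lowest. Efna5, a class A ephrin that repels axons, read 1.39, 1, 1.38, 1.13 and 1.14 in A2B5+ and 0.535, 0.646, 0.581 and 0.577 in O4+ arrays. The fall was 1.04 ± 0.13 (adjusted p = 0.000226). Its O4+ values varied around the low-ratio pattern with an SD of only 0.0507, close to the 0.0448 of low-ratio probe sets, so the size of the fall is uncertain. A further Efna5 probe set, left out by the filter, had ratios of 0.534 to 0.644 in A2B5+ and 0.689 to 0.763 in O4+ arrays, and with it in the mean the difference was -0.38 (adjusted p = 0.00938). Efnb1, a class B ephrin, fell by 0.46 ± 0.15 (adjusted p = 0.0318), from 0.941 to 1.44 in A2B5+ to 0.731 to 1 in O4+ arrays, with overlap. This call was lost without A2B5+ replicate 1, 2 or 3 or O4+ replicate 1, 3 or 4 (adjusted p = 0.0575 to 0.0906) and was kept on the low-ratio scale (-0.76, adjusted p = 0.00712). That scale lowers every difference, so it could only enlarge this fall.

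Efna1 showed the clearest rise among ephrins. This class A ephrin, known from blood vessels, gave 0.818, 1, 0.424, 0.482 and 0.616 in A2B5+ and 2.55, 2.74, 2.21 and 2.42 in O4+ arrays. The populations were far apart and the O4+ arrays close together, and the rise was 1.96 ± 0.24, or 3.89-fold (adjusted p = 0.000180). With a second, left-out probe set in the mean the rise was 1.22 (adjusted p = 0.000197). Efna2, another class A ephrin, rose by a modest 0.61 ± 0.15 (adjusted p = 0.00825). Its ratios were 0.914, 0.662, 0.951, 0.853 and 1 in A2B5+ and 1.22, 1.23, 1.32 and 1.53 in O4+ arrays. Efna4 differed by -0.04 ± 0.15 (adjusted p = 0.842), and its highest value, 1.40, was in A2B5+ replicate 3.

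**Figure D2:**
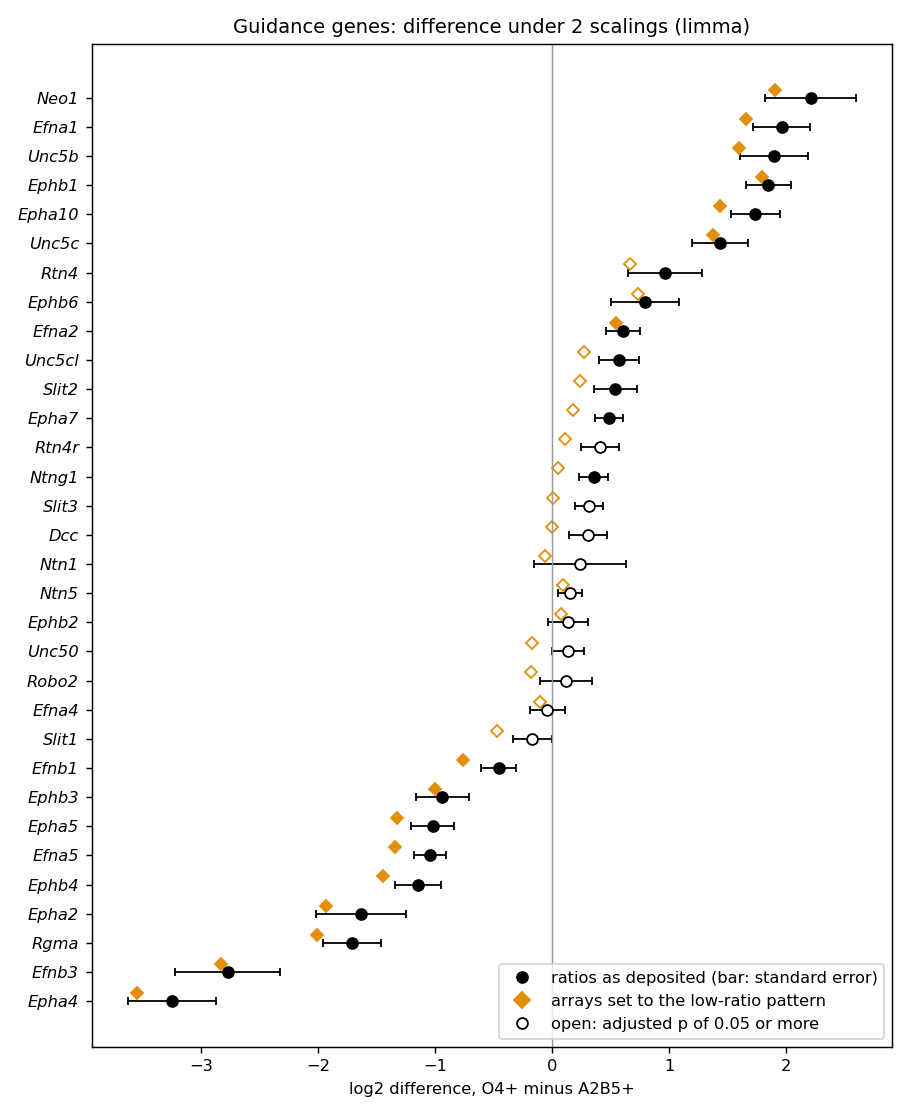
Log2 difference, O4+ minus A2B5+, of the 32 tested guidance genes in order of size, as deposited (black circles, bars of 1 standard error) and on the low-ratio scale (orange diamonds); open symbols have an adjusted p of 0.05 or more. The 9 falls keep filled symbols on both scales, while 6 of the 13 rises turn open, Rtn4, Ephb6, Unc5cl, Slit2, Epha7 and Ntng1. The low-ratio scale lowers every difference, so by construction falls grow and rises shrink.

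Slit2 and Robo2 gave no direction that held over both array types. Slit2, a secreted repellent, rose on array A and fell on array B. Its array A probe set read 0.679, 0.560, 0.83, 1 and 0.998 in A2B5+ and 1.17, 1.28, 1.07 and 1.12 in O4+ arrays (0.54 ± 0.18, adjusted p = 0.0356). Its SD around the low-ratio pattern, 0.220, was below the 95th percentile of low-ratio probe sets (0.321). Its difference was 0.24 on the low-ratio scale (adjusted p = 0.200). The call was lost there, with arrays centred and on leaving out any replicate other than A2B5+ 4 or 5 (adjusted p = 0.0557 to 0.0767). One array B probe set read 2.66, 4.81, 1, 1.09 and 5.00 in A2B5+ and 0.510, 0.627, 0.406 and 0.998 in O4+ arrays. It fell by 1.96 ± 0.55 (adjusted p = 0.0328 within array B), and A2B5+ replicates 1, 2 and 5 stood above all other arrays. The other array B probe set gave -0.71 ± 0.23 (adjusted p = 0.056). With array B used first, Slit2 had a difference of -1.34 (adjusted p = 0.00942), the reverse of the array A result.

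Robo2, a Slit receptor, was the only Robo tested. On array A it differed by 0.12 ± 0.22 (adjusted p = 0.683), with A2B5+ replicate 3 at 1.74 and the other arrays between 0.768 and 1.19. On array B 1 probe set read 1.27, 2.03, 5.996, 4.58 and 0.620 in A2B5+ and 0.842, 1, 0.399 and 0.411 in O4+ arrays. A2B5+ replicates 3 and 4 were high, replicate 5 lay within the O4+ range, and the difference of -1.80 ± 0.67 did not pass the test (adjusted p = 0.0823 within array B). With array B used first, both array B probe sets together gave -1.30 (adjusted p = 0.0444). Slit1 and Slit3, the other secreted Slits, differed by -0.17 ± 0.17 (adjusted p = 0.421) and 0.31 ± 0.12 (adjusted p = 0.0538). Slit3 passed the threshold without A2B5+ replicate 5 (0.34, adjusted p = 0.0490), and on the low-ratio scale its difference was 0.01.

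**Figure D3:**
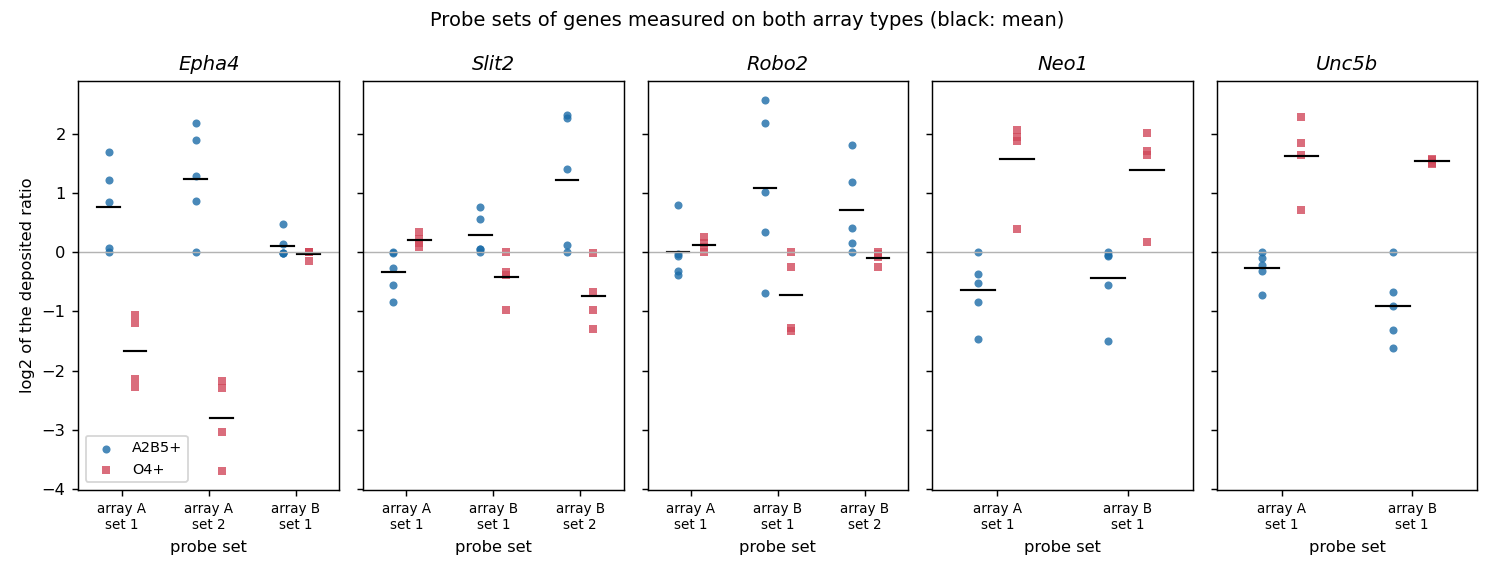
Log2 ratio of each kept probe set of the 5 guidance genes measured on both array types, with blue circles for A2B5+ and red squares for O4+ arrays and a black line at the mean; each pair of columns is a probe set. Neo1 and Unc5b are higher in O4+ arrays on both types, whereas Epha4 separates the populations on array A and overlaps on array B, and the means of Slit2 and Robo2 are lower in O4+ arrays on array B but not on array A.

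Of 4 tested receptors of netrin-1, Neo1, Unc5b and Unc5c rose and Dcc was not called, where 28.8% of all genes rose. The same receptors were called on the low-ratio scale, where 13.7% of all genes rose. The secreted ligand Ntn1 was not called on either scale. Neo1, or neogenin, was measured on both types. On array A its ratios were 0.702, 0.360, 0.779, 1 and 0.558 in A2B5+ and 3.71, 1.31, 3.86 and 4.19 in O4+ arrays, a rise of 2.21 ± 0.39, or 4.63-fold (adjusted p = 0.00142). On array B they were 0.974, 0.682, 1, 0.955 and 0.353, and 4.05, 3.26, 3.14 and 1.12, a rise of 1.82 ± 0.44 (adjusted p = 0.0171 within array B). On each type 1 O4+ array stood well below the other O4+ arrays, replicate 2 on array A and replicate 4 on array B. Over 100 probe sets present on both types, those 2 arrays followed each other in their deviations from the O4+ mean (r = 0.937), so the O4+ numbers of the array types do not pair. Without O4+ replicate 2, the array A rise stayed called, as it did in every omission (2.00 to 2.61, adjusted p at most 0.00593). With a left-out array A probe set in the mean it was 1.29 (adjusted p = 0.00112).

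Both tested UNC5 receptors, which mediate repulsion from netrin-1, rose, as did 28.8% of all genes. For Unc5b the array A ratios were 0.937, 0.606, 1, 0.866 and 0.801 in A2B5+ and 3.59, 4.92, 1.64 and 3.15 in O4+ arrays. The rise was 1.90 ± 0.29, or 3.72-fold (adjusted p = 0.000599). On array B the A2B5+ ratios were 0.627, 1, 0.531, 0.401 and 0.325 and the O4+ ratios 2.97, 2.84, 3.00 and 2.82, a rise of 2.44 ± 0.29 (adjusted p = 0.000478 within array B). Unc5c rose by 1.44 ± 0.24, or 2.71-fold, as the mean of 2 array B probe sets (adjusted p = 0.00105). One of them read 0.814, 0.839, 0.707, 0.815 and 1 in A2B5+ and 3.10, 2.33, 1.61 and 1.83 in O4+ arrays, without overlap. In the other the O4+ ratios were 2.28, 2.77, 2.49 and 0.896, the last within the A2B5+ values of 1.025, 0.803, 1, 0.649 and 0.280.

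Dcc, the main attractive netrin receptor, was not called. Its ratios were 0.659, 0.723, 0.944, 0.952 and 1.09 in A2B5+ and 1, 1.10, 1.02 and 1.13 in O4+ arrays (0.30 ± 0.16, adjusted p = 0.145), and its difference on the low-ratio scale was 0.00. Ntn1, the secreted netrin, read 1.89, 0.861, 0.480, 0.571 and 1 in A2B5+ and 0.599, 1.18, 1.44 and 1.01 in O4+ arrays. The populations overlapped, with a difference of 0.24 ± 0.40 (adjusted p = 0.638) that turned to -0.06 on the low-ratio scale. This result rests on 1 of 3 Ntn1 probe sets. Those left out by the filter had ratios of 0.288 to 0.396 and of 0.510 to 0.717 over all arrays. Their SDs around the low-ratio pattern were 0.0205 and 0.0230. Ntng1, a membrane-anchored relative that does not bind Dcc, read 0.756, 0.783, 0.846, 1 and 0.982 in A2B5+ and 1.07, 1.19, 1.06 and 1.13 in O4+ arrays. It rose by 0.36 ± 0.12 (adjusted p = 0.0401), but only by 0.05 on the low-ratio scale (adjusted p = 0.663). That call was also lost with arrays centred (adjusted p = 0.180), with a replicate block (0.0540) and on leaving out any replicate other than A2B5+ 4 or 5 (0.0655 to 0.0861). Ntn5 differed by 0.15 ± 0.10 (adjusted p = 0.249). Of the genes included by name alone, Unc5cl, a death-domain protein, had ratios of 0.711, 0.599, 0.863, 0.998 and 1 in A2B5+ and 1.24, 1.31, 1.23 and 1.10 in O4+ arrays. It rose by 0.57 ± 0.17 (adjusted p = 0.0206) but neither on the low-ratio scale (0.27, adjusted p = 0.123) nor with arrays centred, and Unc50, a Golgi protein, differed by 0.13 ± 0.14 (adjusted p = 0.442).

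Rgma, the repulsive guidance molecule that binds neogenin, fell while its receptor rose. The A2B5+ ratios were 1.02, 1.19, 1.86, 1.74 and 1, and the O4+ ratios 0.284, 0.527, 0.451 and 0.392. Every O4+ array was below every A2B5+ array, and the fall was 1.70 ± 0.25, or 3.26-fold (adjusted p = 0.000460). Rtn4, which encodes Nogo, had 2 array A probe sets, whose mean rose by 0.97 ± 0.32 (adjusted p = 0.0305). The steadier one read 0.939, 0.935, 0.957, 1 and 0.730 in A2B5+ and 1.72, 1.09, 1.16 and 1.73 in O4+ arrays. In the more variable of them the ratios were 0.948, 0.835, 0.993, 1.05 and 0.402 in A2B5+ and 2.77, 1.21, 1 and 4.80 in O4+ arrays. In both, O4+ replicates 1 and 4 were highest and replicates 2 and 3 lay near the A2B5+ arrays. The call was lost without A2B5+ replicate 2 (0.98, adjusted p = 0.0554) or 5 (0.80, 0.0556), without O4+ replicate 1 (0.84, 0.0815) or 4 (0.71, 0.0775), with arrays centred (0.80, 0.0842) and on the low-ratio scale (0.67, 0.162). Rtn4r, the Nogo receptor, differed by 0.41 ± 0.16 (adjusted p = 0.0647), and by 0.11 on the low-ratio scale (adjusted p = 0.512). Without A2B5+ replicate 5 it was called (0.48, adjusted p = 0.0421).

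A list of 78 partners of these pathways, chosen with earlier results of these data known, had 66 tested genes. Of these 22 rose and 15 fell (33.3% and 22.7%, against 28.8% and 17.8% of all genes), and 11 rose and 23 fell on the low-ratio scale (16.7% and 34.8%, against 13.7% and 24.5%). The median difference was 0.17, and -0.13 on the low-ratio scale, against 0.14 and -0.08 for all genes. The largest rises were Mag, a myelin protein that binds Nogo receptors (4.87 ± 0.18, adjusted p = 1.86e-07), Bmp4, a ligand whose signalling repulsive guidance molecules enhance (4.42 ± 0.56, adjusted p = 0.000220), Omg, a further Nogo receptor ligand (3.34 ± 0.46, adjusted p = 0.000337), and Ptpro, a phosphatase of Eph receptors (2.69 ± 0.26, adjusted p = 4.06e-05). The largest falls were Ablim1, an actin-binding protein linked to netrin guidance (-2.89 ± 0.28, adjusted p = 4.42e-05), Flrt2, an adhesion protein that binds UNC5 receptors (-1.60 ± 0.39, adjusted p = 0.00875), Vav3, an exchange factor downstream of Eph receptors (-1.52 ± 0.18, adjusted p = 0.000153), and Bmpr2, a BMP receptor (-1.28 ± 0.32, adjusted p = 0.00953). All 8 were called in the same direction on the low-ratio scale.

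Other partners that bind a member moved both ways. Fyn, a kinase that acts with Dcc and is active in oligodendrocytes, rose by 2.51 ± 0.36 (adjusted p = 0.000462), and Gpc1, a proteoglycan that binds Slits, by 2.13 ± 0.19 (adjusted p = 2.62e-05). Lingo1 and Ngfr, co-receptors of Rtn4r, rose by 0.90 ± 0.27 (adjusted p = 0.0211) and 0.75 ± 0.21 (adjusted p = 0.0170), but neither was called on the low-ratio scale (0.133 and 0.196). Dscam, a further netrin receptor, fell by 0.76 ± 0.19 (adjusted p = 0.0109). Inppl1, a lipid phosphatase that binds Epha2, rose by 1.79 ± 0.23 (adjusted p = 0.000202), and Ptk2, a kinase that binds Dcc, by 1.04 ± 0.17 (adjusted p = 0.00113). Nck1, an adaptor of Ephb1, fell by 1.08 ± 0.22 (adjusted p = 0.00346), Sdc1, a heparan sulfate proteoglycan, by 0.72 ± 0.22 (adjusted p = 0.0249), and Sdcbp, which binds class B ephrins, by 0.50 ± 0.12 (adjusted p = 0.00852). The differences of Ngef, an exchange factor on Epha4 (-0.55, adjusted p = 0.0512), Flrt3, an UNC5 ligand (-0.38, adjusted p = 0.409), Maged1, which binds UNC5 receptors (0.21, adjusted p = 0.518), Sdc3, another heparan sulfate proteoglycan (-0.15, adjusted p = 0.554), and Tnfrsf19, a co-receptor of Rtn4r (0.44, adjusted p = 0.162), did not pass the test. On the low-ratio scale Ngef was called lower (-0.86, adjusted p = 0.0157).

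Within the A2B5+ population, probe sets with lower O4+ means did not follow 1 pattern over replicates. Epha4, Rgma, the more variable Ephb3 probe set and Robo2 on array B, which was not called there, were highest in A2B5+ replicates 3 and 4, while Epha2 and the more variable Slit2 probe set of array B were lowest there and highest in replicates 1, 2 and 5. The other Slit2 probe set of array B read 1, 1.70, 1.04, 1.04 and 1.48 in A2B5+ replicates 1 to 5, high in replicates 2 and 5 alone. The other members that fell followed neither order. Efnb3, Epha5 and Efna5 were highest in A2B5+ replicates 1 and 3, Ephb4 in replicates 1 and 5, and Efnb1 in replicates 2 and 3. The A2B5+ numbers did pair across array types, with r from 0.778 to 0.887 over the 100 shared probe sets. Marker lists of other cell types also differed between these arrays. On array A the mean log2 ratio of 10 neuron and neuroblast markers was 1.17 and 1.00 in A2B5+ replicates 3 and 4, against 0.47, 0.35 and -0.23 in replicates 1, 2 and 5. That of 9 astrocyte and radial glia markers was 0.90 and 0.75, against 0.52, 0.14 and -0.07. Over A2B5+ replicates 1 to 5, 4 progenitor markers averaged 1.19, 0.31, 1.09, 1.28 and -0.10, 7 microglia markers -0.08, 0.83, 0.29, 0.76 and 0.69, and 8 endothelial and mural markers 0.34, 0.54, 0.02, 0.23 and 0.21. These arrays were compared by their values alone, without a test, and the part of other cells in the guidance differences was not tested.

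**Figure D4:**
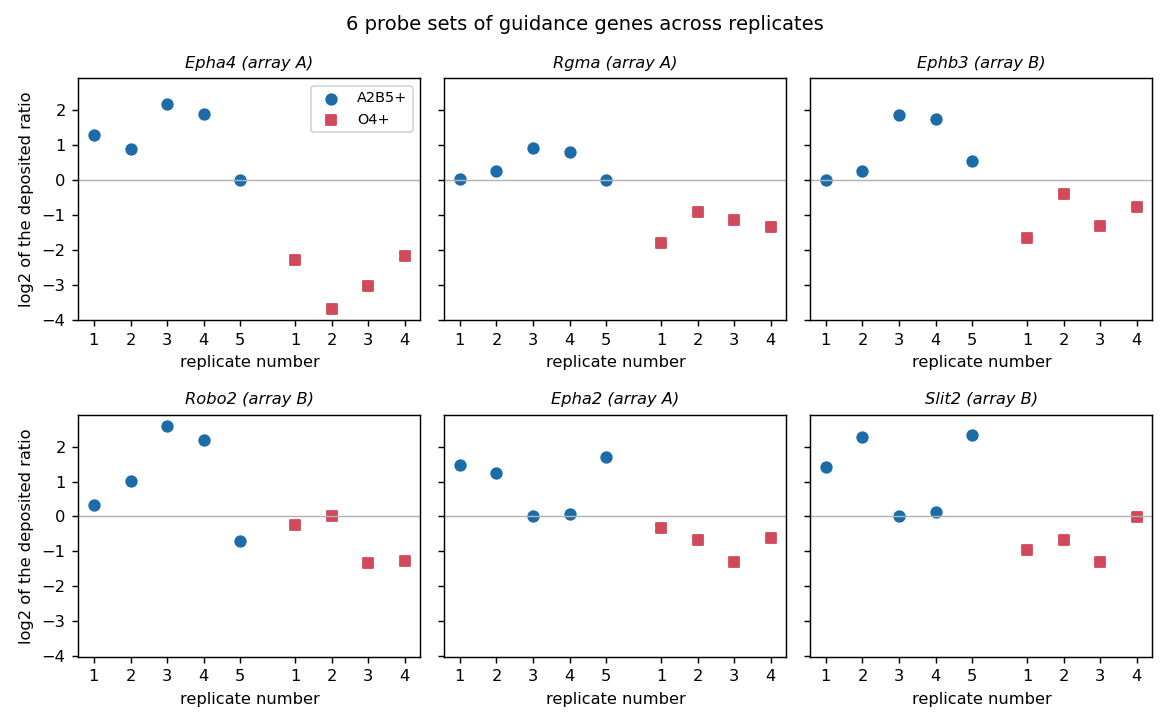
Log2 ratio of 6 guidance probe sets in each replicate, with blue circles for A2B5+ replicates 1 to 5 and red squares for O4+ replicates 1 to 4. Epha4, Rgma, Ephb3 and Robo2 peak in A2B5+ replicates 3 and 4, and Epha2 and the Slit2 probe set shown in replicates 1, 2 and 5.

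The sort labels were compared with short marker lists, chosen with earlier results of these data known. Of all genes 28.8% rose and 17.8% fell, or 13.7% and 24.5% on the low-ratio scale. All 9 tested oligodendrocyte markers rose, and the 7 of them on array A had means of 3.55 to 3.93 in O4+ and -1.29 to -0.62 in A2B5+ arrays, and all 4 tested progenitor markers fell. Of the other lists, 8 of 8 microglia markers fell, as did 8 of 10 endothelial and mural, 6 of 9 astrocyte and radial glia, and 7 of 11 neuron and neuroblast markers, with 3 of the last rising (0 on the low-ratio scale). Over the markers measured on array A alone (8, 7, 10 and 9 genes), list means in O4+ and A2B5+ arrays were -1.91 to -0.76 and 0.02 to 0.54 for endothelial and mural, -1.54 to -0.14 and -0.08 to 0.83 for microglia, -0.74 to -0.28 and -0.23 to 1.17 for neuron and neuroblast, and -0.88 to -0.32 and -0.07 to 0.90 for astrocyte and radial glia markers. Some members that fell, such as Epha2, Ephb4 and Epha4, are known from vessels, astrocytes or neurons. Efna1, also known from vessels, rose by 1.96. The part of other cells in these differences was not tested.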

How the data were processed

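RNA of A2B5+ and O4+ cells was measured on 2 array types (5 and 4 replicates). The deposited values are linear ratios; the only tool that the submitters' processing notes name is GCRMA, and the sources used here do not say how the authors formed ratios. Median ratios over 9 arrays equalled 1 in 12995 of 15923 array A probe sets (array B: 11050 of 15333). Gene names came from GEO's platform annotation; all 38 member genes matched the reference gene table. Control probe sets (57 per type) were left out. The log2 ratios were fitted with limma 3.58.1 in R 4.3.3 (lmFit, eBayes, two-sided), 1 row per gene for all 11982 genes, and per array type for probe sets, with Benjamini-Hochberg adjustment. The fit was also run on simulated data with independent normal values, few changed genes and no shift shared by whole arrays. That setting is simpler than these data, so it does not test the fit under such a shift. Members, lists and settings were chosen with earlier results of these data known. Every tested member is named; those called without overlap have every array's value, and partners are named by the 4 largest rises and falls and, without listing all of them, by known binding to a member. Alternatives covered the scale, filter, array type, variance model, array weights, a replicate block and each replicate left out. P-values weigh each difference against the spread between replicates, which eBayes moderates over all genes. The number of replicates limits the precision.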

Additional observations from a re-analysis of the deposited data

Results flagged for a closer look

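Over 64 sets of replicate values of the 32 tested guidance genes, 5 had 1 array set apart from the rest of its population by Dixon's gap ratio, where chance alone flags about 1 set in 20. Neo1 in O4+ replicate 2 on array A had a log2 ratio of 0.39, against 1.89 to 2.07 in the other O4+ arrays, and its counterpart on array B was low as well. Slit3 and Rtn4r in the same array were the highest of the O4+ arrays, at 0.47 against 0.10 to 0.13, and at 0.58 against 0.05 to 0.09. Rtn4 in A2B5+ replicate 5 was low, at -0.88 against -0.18 to 0.03. Unc50 in O4+ replicate 4 was the highest, at 0.22 against -0.01 to 0.01.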

How the results depend on the processing

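Of the 22 guidance genes called, 14 kept their call and direction under all 17 other settings. The count of rising members was 13 and moved to 8 with arrays centred and 7 on the low-ratio scale (all genes 3445, 2241 and 1637); falling members numbered 9 in each (all genes 2127, 2447 and 2936). Leaving out 1 replicate gave 9 to 13 rising and 8 to 9 falling members (all genes 2714 to 3622 and 1775 to 2091). Directions reversed for Slit2 (-1.34) and Robo2 (-1.30) with array B before array A, for Robo2 also with arrays centred (-0.050), with array weights (-0.028) and on the low-ratio scale (-0.18), for Unc50 with arrays centred (-0.035) and on the low-ratio scale (-0.17), for Ntn1 on the low-ratio scale (-0.062) and for Efna4 without A2B5+ replicate 3 (0.067, lowest of the omissions -0.11); the cause was not tested. Without a filter 19 of 38 members rose and 8 fell (all genes 4914 and 2060). Some of the 19 were genes with no kept probe set, whose values had helped form the low-ratio pattern. Low-ratio probe sets then entered the means of Efnb1 (-0.09, adjusted p = 0.437), Efna5 (-0.38), Efna1 (1.22) and Neo1 (1.29), of which only Efnb1 lost its call. They also entered the means of Ntn1 and Rtn4r. Without a filter Slit3 (adjusted p = 0.0306) and Rtn4r (0.0419) became called, as did Slit3 (0.0399) and Slit1 (-0.36, 0.0409) with array weights. Replicate numbers were not taken as pairs, since deviations of same-numbered arrays correlated at 0.02 to 0.31 on array A, not all above 0.1. Such correlations cannot settle whether same-numbered arrays shared a litter. On array B they gave -0.20 to 0.24, but O4+ numbers do not match between types there; with O4+ arrays of B matched to those of A on shared probe sets they were -0.02, 0.20, 0.23 and 0.15. The block and the omissions use the labels' numbers on both types, so on array B the block does not join the arrays that it joins on array A. With the replicate number as a block, 11 members rose and 9 fell (all genes 3218 and 2185), and the calls of Ephb6 and Ntng1 were lost. Array weights gave 13 rising and 10 falling members, while the counts over all genes grew to 4212 and 2635. Robust variances and the median filter each gave 13 and 9 (all genes 3391 and 2107, and 3379 and 2123). Signal over background is not held in ratios, so weak probe sets cannot be told from silent ones.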
